A study of Oryctolagus cuniculus with 4 samples.

Results

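Spots of healthy supraspinatus muscle were chosen by their share of slow myosin, and the slowest 25% of spots of each healthy section were compared with the fastest 25%. The ranking measure was MYH7/(MYH1+MYH7) in raw UMIs (unique molecular identifiers, each standing for 1 captured RNA molecule). Of 6970 spots in 4 Visium sections, 4117 spots of the 2 healthy sections had at least 500 UMIs and at least 10 MYH1+MYH7 UMIs, and 2064 of them fell into the compared groups. Section 14R gave 588 slow and 590 fast spots, and section 211R gave 444 slow and 442 fast spots. A Visium spot is a small disc of the slide that lies under several fibers or cells, so the words slow and fast describe the myosin RNA of a region and not of a single fiber.

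The muscle came from skeletally mature female New Zealand White rabbits. Section 14R was cut from a healthy supraspinatus stored for 6 years, and section 211R from a healthy supraspinatus used fresh. Sections 6L and 14L, used for comparison only, came from muscle collected 2 weeks and 16 weeks after tenotomy (cutting of the tendon) and then stored for 6 years as well. All 4 sections were permeabilized for 18 min. Sections 14R and 14L bear the same number in their labels, which do not say whether they are from the same animal. There was 1 section per condition, so storage, animal and section cannot be told apart in any difference between 14R and 211R. Spots of a section are not replicates, and no p-value was computed from them.

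Skeletal muscle is built from fibers that differ in the myosin motor they carry. Slow type 1 fibers use the MYH7 heavy chain, contract slowly and live mainly on oxidation of fat, lactate and glucose, whereas type 2x fibers use MYH1, contract fast and rely more on glycolysis. Along with the motor, the 2 kinds of fiber carry different versions or amounts of light chains, troponins, Z-disc proteins, calcium pumps and calcium stores, often encoded by paired genes. The count table has no feature named MYH2, the type 2a heavy chain, so fibers of that type entered the ranking only through the MYH1 and MYH7 they or their neighbors held.

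The ranking separated the spots of the 2 sections at different points. In 14R the MYH7 share of the kept spots ran from 0 to 100% with a median of 48.5%, and in 211R from 0 to 96.3% with a median of 9.21%. Slow spots of 14R therefore began at 85.5% MYH7, and the last spot just outside also had 85.5%. Fast spots of 14R ended at 25.0%, with the first spot outside at 25.2%. In 211R the slow spots began at 21.1%, next to an outside spot at 21.0%, and the fast spots ended at 4.32%, where the first spot outside had the same rounded share. Consequently, 82 of the 444 slow spots of 211R had a MYH7 share at or under the limit for fast spots in 14R. Per 10000 UMIs, the slow spots of 14R held 204 MYH7 and 5.49 MYH1, and the fast spots 33.4 and 187. The slow spots of 211R held 78.8 MYH7 and 118 MYH1, and the fast spots 7.24 and 288. These 2 genes chose the spots and are given as a description only.

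**Figure D1:**
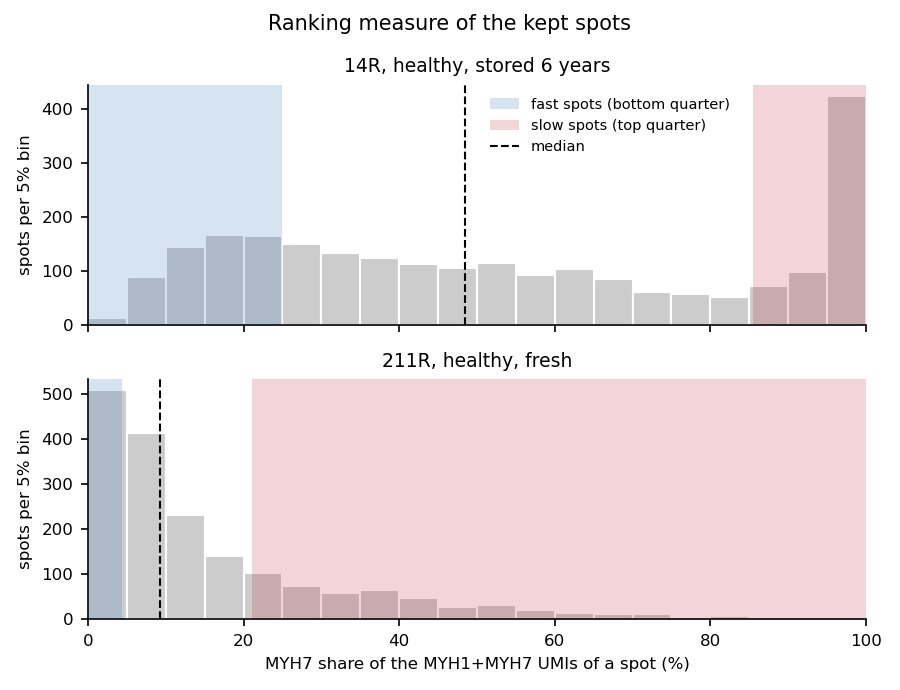
Number of kept spots (vertical axis) in bins of 5% of the MYH7 share of the MYH1+MYH7 UMIs (horizontal axis) for 14R and 211R, with the fast 25% of spots shaded blue, the slow 25% shaded red and the median dashed. The medians lay at 48.5% in 14R and 9.21% in 211R, so the slow spots of 211R start at 21.1%, below the 25.0% at which the fast spots of 14R end.

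The slow and fast groups differed in depth. The groups summed to 3562740 slow and 2900243 fast UMIs in 14R and to 1858115 and 1687704 in 211R. The median spot had 5906.5 UMIs in the slow and 4994.5 in the fast group of 14R, and 4124.5 and 3689.5 in 211R. Mitochondrially encoded genes took 44.9% of slow and 49.5% of fast UMIs in 14R, and 50.3% and 47.9% in 211R, so their direction differed between the sections. All levels below are UMIs of a gene per 10000 UMIs of its group. Differences are log2 ratios of these levels, slow over fast, with 0.5 UMI added to each sum, and intervals are exact conditional 95% intervals that cover counting error only, neither differences between animals nor between sections. As in any mixed tissue, fewer fibers of a type and less RNA per fiber cannot be told apart. The 3′ counts were not divided by transcript length. A level is used to compare a gene between spots and not one gene with another.

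At least 50 UMIs in the slow and fast spots together in each section were counted for 2034 genes other than the selectors. Of these, 67 were at least 1.5-fold higher in slow spots in both sections (3.29% of the genes tested), and 31 were at least 1.5-fold higher in fast spots in both (1.52%). The minimum was set on the 2 groups together, so a sparse gene can pass it mostly through the group where it is higher. This favors its call, as for MYH7B, MYH4 and CASQ2 in 211R, given below. In 14R alone, 448 genes were higher in slow spots (22%) and 163 in fast spots (8.01%). In 211R alone, 123 genes were higher in slow spots (6.05%) and 117 in fast spots (5.75%). The 67 shared genes made up 15.0% of the slow genes of 14R and 54.5% of those of 211R, and the 31 shared genes made up 19.0% and 26.5% of the fast genes. For 58 of the 67 and 29 of the 31, the counting interval lay on 1 side of equality in both sections. The same sums chose these genes, so this is no separate support, and the intervals leave out differences between spots. The median gene tested had a log2 ratio of 0.24 in 14R and −0.03 in 211R, so most genes of 14R lay slightly to the slow side. Centring each section on its median gene left 244 genes higher in slow and 273 in fast spots of 14R, so slow genes made up 47.2% of its calls in place of 73.3%. In 211R centring gave 137 and 103 genes, or 57.1% in place of 51.2%. For both sections together it gave 54 slow and 37 fast genes, or 59.3% in place of 68.4%.

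Markers of skeletal muscle were present in every group. NEB, the giant ruler protein of the thin filament, stood at 21.4 in slow and 25.5 in fast spots of 14R and at 29.8 and 30.4 in 211R, and desmin, DES, at 2.01 and 2.38 and at 3.47 and 4.53. Neither differed by 1.5-fold in a section. No feature of the count table is named ACTA1, CKM or TTN.

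**Figure D2:**
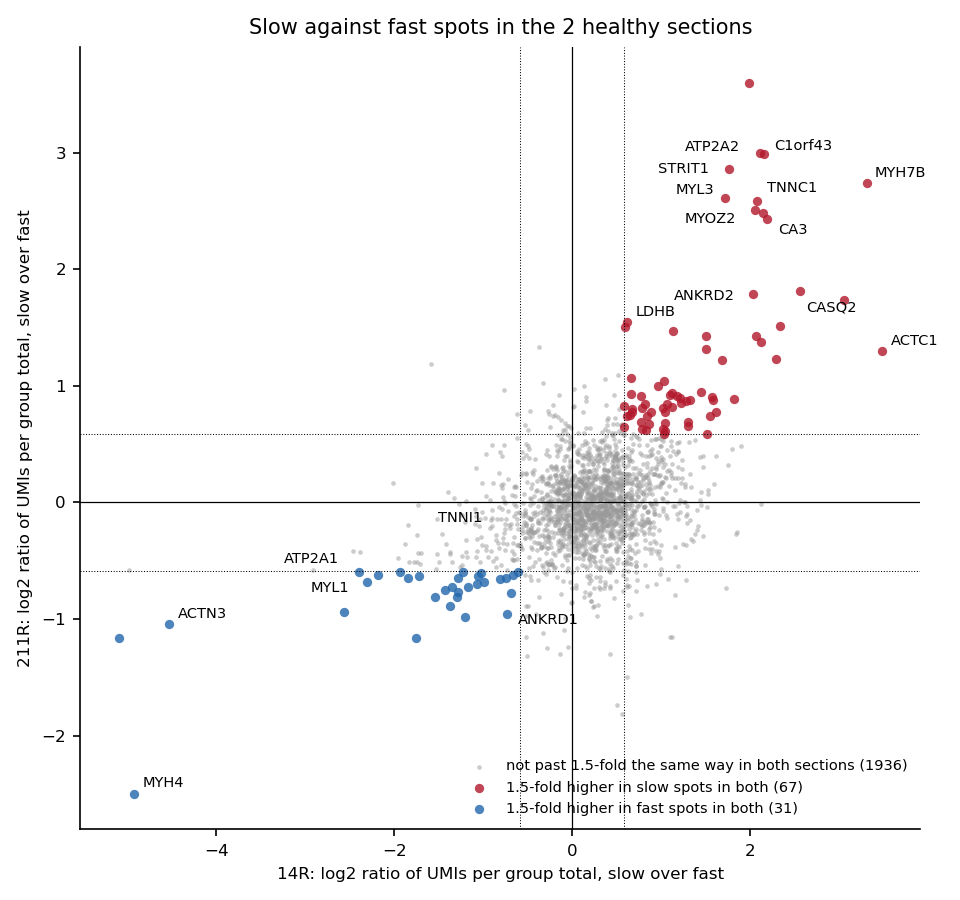
Log2 ratio of UMIs per group total, slow over fast, for each of 2034 genes in 14R (horizontal axis) and 211R (vertical axis); dotted lines mark 1.5-fold. The 67 red genes are higher in slow spots in both sections, the 31 blue genes are higher in fast spots in both, and the fast genes reach lower in 14R (ACTN3 at −4.53) than in 211R (−1.04).

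Genes of the slow contractile apparatus stood higher in slow spots in both sections, but not in full. Of the 18 genes listed, 14 have a feature in the count table and 13 reached 50 UMIs in both sections. In 14R, 12 of these were 1.5-fold higher in slow spots and 1 in fast spots, in 211R 10 were higher in slow and 0 in fast spots, and 10 were higher in slow spots in both. Among all genes tested, 22% were higher in slow spots in 14R, 6.05% in 211R and 3.29% in both. The median of the list was 2.03 in 14R and 1.42 in 211R, beside 0.24 and −0.03 for all genes tested.

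MYL2 is the regulatory light chain of slow and cardiac myosin. Its level was 462 in slow and 104.1 in fast spots of 14R, and 123 and 22.1 in 211R, which gave log2 ratios of 2.15 (interval 2.13 to 2.17) and 2.48 (2.43 to 2.53). Single slow spots of 14R held from 82.3 to 1086 MYL2 per 10000 UMIs with a median of 421, and fast spots from 19.0 to 269.8 with a median of 99.7. No fast spot of either section (0 of 590 and 0 of 442) reached the median of the slow spots, although the ranges overlapped. MYL3, the essential light chain of the same myosin, had a level of 81.5 in slow and 24.7 in fast spots of 14R and of 41.0 and 6.69 in 211R. Its log2 ratios were 1.72 and 2.62.

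TNNC1, the troponin C of slow and cardiac muscle that binds the activating calcium, had 88.0 UMIs per 10000 in slow and 20.9 in fast spots of 14R. In 211R it had 48.1 and 7.99, and the log2 ratios were 2.07 (2.03 to 2.11) and 2.59 (2.51 to 2.67). Again 0 fast spots reached the slow median in either section. MYH7B, a myosin heavy chain gene related to MYH7, was rarer, with 456 UMIs in slow against 37 in fast spots of 14R and 84 against 11 in 211R. It was found in 45.6% of slow and 5.93% of fast spots in 14R, and in 14.6% and 2.49% in 211R. Its log2 ratios of 3.31 and 2.74 are given with the limit that reads from closely related myosin genes can be assigned to either one.

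Z-disc and sarcomere proteins of slow muscle followed the same order. MYOZ2, a Z-disc protein that binds the phosphatase calcineurin, had levels of 6.61 against 1.59 in 14R and 3.76 against 0.658 in 211R. ANKRD2, an ankyrin repeat protein that responds to stretch, had 7.37 against 1.81 and 7.59 against 2.19, so its slow level was nearly the same in both sections. The log2 ratios of CSRP3, the muscle LIM protein, were 2.29 and 1.23, those of LMOD2, which starts actin filaments, 2.13 and 1.38, and those of the Z-disc protein PDLIM1 1.502 and 1.42. MYBPC1, the slow form of myosin-binding protein C, passed narrowly with 0.59 and 0.64. Its call was kept under only 2 of 11 alternative selections of spots or scalings, and was lost, for example, after centring on the median gene (0.35 in 14R).

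Of the slow list, 3 genes were not called in both sections. ACTN2, the alpha-actinin of all fibers, had log2 ratios of 0.83 in 14R and 0.40 in 211R, and the small muscle protein SMPX had 0.68 and 0.58. The feature named TNNI1, the symbol of the troponin I of slow fibers, lay on the other side. Whether this feature also counts reads of another troponin I gene was not tested, so its values are those of the feature as annotated. Its level was 25.7 in slow and 48.0 in fast spots of 14R, and 65.5 and 75.5 in 211R, with log2 ratios of −0.90 (−0.94 to −0.87) and −0.20 (−0.24 to −0.17). Under every alternative selection of spots or scaling TNNI1 stayed below 0 in both sections. In 6L and 14L its log2 ratio was −0.34 and −0.22.

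Fast contractile genes showed the opposite order, with larger ratios in 14R. Of 15 listed genes, 8 have a feature and 7 were tested. In 14R, 6 were 1.5-fold higher in fast spots, in 211R 4 were, together with 1 higher in slow spots, and 4 were higher in fast spots in both. The medians were −1.78 and −0.63, beside 0.24 and −0.03 for all genes tested. Among all genes, 8.01% were higher in fast spots in 14R, 5.75% in 211R and 1.52% in both, and 6.05% were higher in slow spots in 211R. ACTN3, the alpha-actinin found only in fast fibers, differed most among the members of this list with at least 200 UMIs in each section. Its level was 0.581 in slow and 13.4 in fast spots of 14R, and 10.9 and 22.5 in 211R. The log2 ratios were −4.53 (−4.74 to −4.33) and −1.04 (−1.12 to −0.97). At least 1 ACTN3 UMI was found in 25.5% of slow and 97.5% of fast spots in 14R, but in 93.2% and 97.3% in 211R, whose slow spots also held MYH1.

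MYL1, the essential light chain of fast myosin, stood at 33.4 in slow and 166 in fast spots of 14R and at 109 and 174 in 211R. Its log2 ratio was −2.31 in 14R and −0.68 in 211R. TPM1, the alpha-tropomyosin of fast fibers, stood at 42.5 against 141 and at 110.2 against 171, or −1.73 and −0.63, and its call was lost without mitochondrial genes in the totals (−0.56 in 211R). The fast levels of both genes were nearer to each other in the 2 sections than the slow levels, which were far lower in 14R. MYH4, the type 2b heavy chain, was sparse: 8 UMIs in slow and 209 in fast spots of 14R, and 15 and 79 in 211R. Its log2 ratios of −4.92 (−6.23 to −3.999) and −2.50 (−3.44 to −1.73) carry the same limit of related myosin genes as MYH7B, here with the selector MYH1.

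The other tested members of the fast list did not pass in both sections. MYOZ1, the Z-disc partner of MYOZ2 in fast fibers, had −1.78 and −0.51, and MYLK2, the skeletal myosin light chain kinase, had −0.68 and −0.18. MYOT (myotilin, a Z-disc protein) was higher in slow spots, at 0.58 in 14R and 0.60 in 211R, close to the 1.5-fold limit in both.

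Calcium is pumped back into the sarcoplasmic reticulum by SERCA pumps and held there by calsequestrins, and slow and fast fibers differ in their amounts of both. ATP2A2, the pump of slow and cardiac muscle, had a level of 20.9 in slow and 4.84 in fast spots of 14R and of 17.5 and 2.19 in 211R. Its log2 ratio was 2.11 (2.03 to 2.19) in 14R and 2.995 (2.84 to 3.16) in 211R. At least 1 UMI of it was found in 99.1% of slow and 81.9% of fast spots of 14R and in 91.7% and 51.6% in 211R. ATP2A1, the pump of fast muscle, had 11.9 against 62.8 in 14R and 48.6 against 73.4 in 211R, and log2 ratios of −2.40 and −0.59. The call of ATP2A1 in 211R lies at the limit, and it was lost without mitochondrial genes in the totals (−0.52).

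Of the calsequestrins, CASQ2 passed 1.5-fold in both sections and CASQ1 in 14R alone. CASQ2, the cardiac and slow form, stood at 3.16 against 0.534 in 14R and at 0.447 against 0.124 in 211R, where it rested on 83 and 21 UMIs. Its log2 ratios were 2.56 and 1.82. CASQ1 was 1.5-fold higher in fast spots in 14R (−0.73) and stayed under the limit in 211R (−0.36). At least 1 CASQ1 UMI was found in 99.3% of slow and 100% of fast spots of 14R. STRIT1, which encodes a micropeptide that raises SERCA activity, stood at 27.6 against 8.13 in 14R and at 27.9 against 3.83 in 211R, or 1.76 and 2.86. PLN, which encodes phospholamban, the inhibitor of SERCA2, was under the minimum with 57 and 9 UMIs in 14R and 26 and 3 in 211R.

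In the voltage sensor and release machinery, 9 of 19 listed genes were tested and 2 were higher in fast spots in both sections. Among them was JPH1, a junctophilin that holds the membranes of the triad together (−1.29 and −0.65, and −0.58 in 211R without mitochondrial genes in the totals, just under the limit). The release channel RYR1 had −1.19 in 14R and −0.43 in 211R, and the voltage sensor CACNA1S −0.86 and −0.55, so both passed in 14R alone. The median of the list was −0.86 in 14R and −0.28 in 211R, beside 0.24 and −0.03 for all genes tested. Of all genes, 1.52% were higher in fast spots in both sections.

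**Figure D3:**
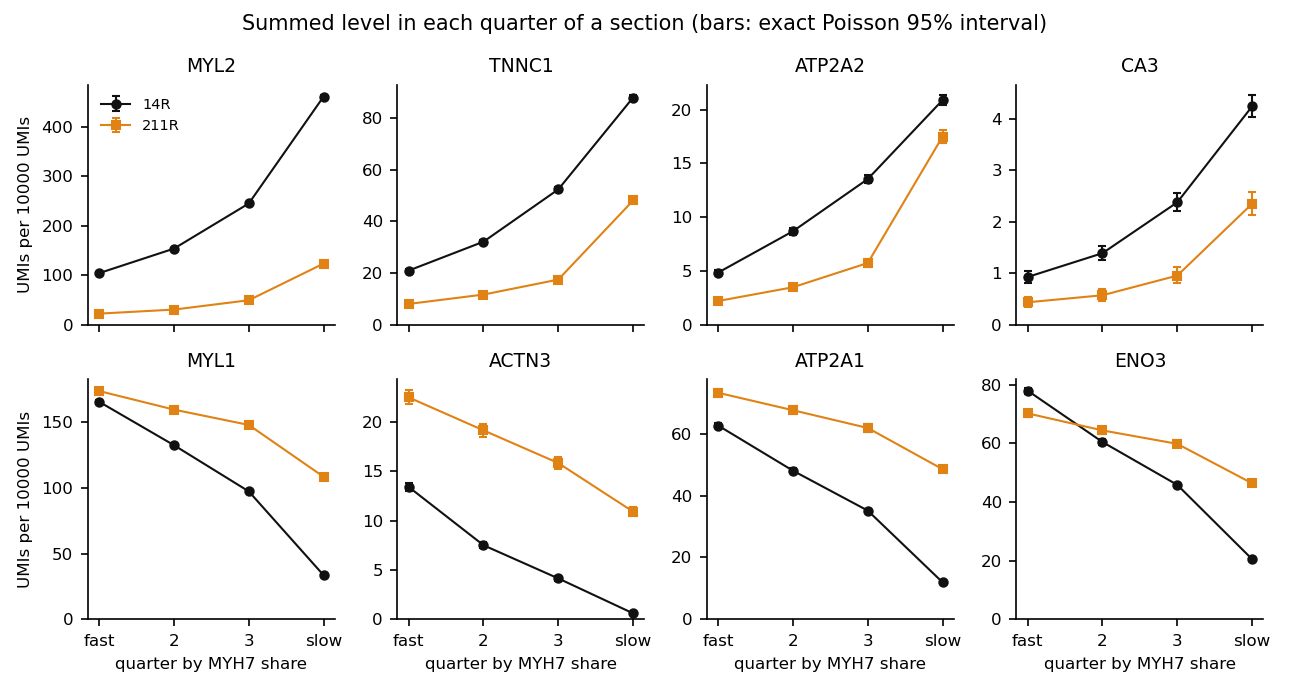
Summed level (UMIs per 10000 UMIs, vertical axes from 0) of 4 slow and 4 fast genes in 4 groups of 25% of the spots of each section by MYH7 share, from fast to slow, in 14R (black circles) and 211R (orange squares), with exact Poisson 95% intervals. All 8 genes were ordered along the 4 groups in both sections, and MYL2 ran from 104.1 to 462 in 14R and from 22.1 to 123 in 211R.

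The spots between the 2 groups filled in the order. Over 4 groups of 25% of the spots by MYH7 share, MYL2 stood at 104.1, 154, 245 and 462 in 14R and at 22.1, 30.3, 49.2 and 123 in 211R. ACTN3 stood at 13.4, 7.50, 4.13 and 0.581 in 14R and at 22.5, 19.2, 15.8 and 10.9 in 211R. Of the 67 slow genes, 49 were higher in each group than in the one before in 14R, 38 in 211R and 32 in both, and of the 31 fast genes 25, 21 and 20 were lower in each. This order runs along the rule's own ranking and describes how the levels graded, without a test. The genes were also chosen by a 1.5-fold difference between the end groups, which favors such an order. How many of all genes tested were ordered in this way was not counted. In both sections MYL2, TNNC1, ATP2A2 and CA3 had their widest step between the last middle group and the slow spots.

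Glycolysis and glycogen breakdown feed fast fibers, and 11 of 25 listed genes were tested. In 14R, 9 were 1.5-fold higher in fast spots and 1 in slow spots. In 211R, 3 were higher in fast spots and 0 in slow spots, and these 3 were called in both. The medians were −1.53 and −0.44, beside 0.24 and −0.03 for all genes tested. Of all genes, 8.01% were higher in fast spots in 14R, 5.75% in 211R and 1.52% in both. ENO3, the muscle enolase, stood at 20.5 in slow and 78.0 in fast spots of 14R and at 46.4 and 70.2 in 211R, with log2 ratios of −1.93 and −0.60. PHKA1, the muscle subunit of the kinase that switches on glycogen phosphorylase, had −1.43 (−1.59 to −1.27) and −0.75 (−0.91 to −0.60).

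The other 6 genes higher in fast spots of 14R did not pass in 211R. ALDOA, the muscle aldolase, had 55.1 against 184 UMIs per 10000 in 14R and 167 against 239 in 211R (−1.74 and −0.51). PGAM2 had −1.70 and −0.44, PGM1 −1.74 and −0.43, GPI −1.37 and −0.43, TPI1 −1.53 and −0.57 and PFKFB1 −0.78 and 0.05. HK2, the hexokinase of muscle, was on the other side at 0.72 and 0.22, as was the glucose transporter SLC2A4 at 0.31 and 0.47. ENO3 was called in 211R by a narrow margin, and its value without mitochondrial genes in the totals was −0.53.

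Some genes of fat, lactate and oxygen use were higher in slow spots of both sections. Of all genes tested, 22% were higher in slow spots in 14R, 6.05% in 211R and 3.29% in both, with medians of 0.24 and −0.03. Of 27 genes of fatty acid uptake and oxidation, 8 were tested, 4 were higher in slow spots in 14R, 3 in 211R and 2 in both, with medians of 0.47 and 0.56. Centred on the median gene, the median of this list in 14R was 0.23. LPL, the lipase that frees fatty acids in capillaries, had 3.98 against 2.04 in 14R and 4.84 against 2.42 in 211R, or 0.96 and 0.998. FABP3, which carries fatty acids in the cytosol, had 14.4 against 9.60 and 7.14 against 4.01, or 0.59 and 0.83. In the list of lactate use and pyruvate oxidation, 4 of 11 were tested and 1 was called in both: LDHB, the lactate dehydrogenase subunit of oxidative muscle and heart, with 13.5 against 8.79 in 14R and 5.47 against 1.87 in 211R (0.62 and 1.55). The cytosolic malate dehydrogenase MDH1 (0.66 and 0.93) was the only 1 of 7 tested genes of the tricarboxylic acid cycle list called in both. The medians of that list were −0.21 and 0.15.

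CA3, a carbonic anhydrase abundant in slow fibers, had the largest ratio among the genes of oxygen and carbon dioxide handling. It stood at 4.24 in slow and 0.924 in fast spots of 14R and at 2.35 and 0.433 in 211R, with log2 ratios of 2.20 (2.01 to 2.39) and 2.43 (2.08 to 2.82). MB, which encodes the oxygen store myoglobin, had 1.99 against 1.26 and 2.46 against 1.17, or 0.66 and 1.07. The heme enzyme ALAS1 had 0.51 and 0.37 and was not called. Centred on the median gene, FABP3 (0.35), LDHB (0.38), MB (0.42) and MDH1 (0.42) fell under 1.5-fold in 14R, while LPL (0.73) and CA3 (1.96) remained over it.

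None of the tested respiratory chain genes was called in both sections. All 27 nuclear-encoded subunits with a feature were tested, 1 was higher in slow spots in 14R, 0 in 211R and 0 in both, with medians of −0.04 and 0.16. Among all genes tested these shares were 22%, 6.05% and 3.29%, so 0 of 27 in both is near the share of all genes. Of 23 tested mitochondrially encoded genes, 4 were higher in fast spots in 14R and 1 was higher in slow spots in 211R, with medians of −0.27 and 0.04. Among all genes, 8.01% were higher in fast spots in 14R. CKMT2, the mitochondrial creatine kinase, had 0.49 and 0.39. The list of phosphocreatine and adenine nucleotide genes, with 2 tested, had medians of −0.30 in 14R and −0.04 in 211R. In 14R, 1 of these 2 was 1.5-fold higher in fast spots. For comparison, 13 cytosolic ribosomal protein genes had medians of 0.37 in 14R and −0.04 in 211R, on the same sides of 0 as the median gene tested.

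**Figure D4:**
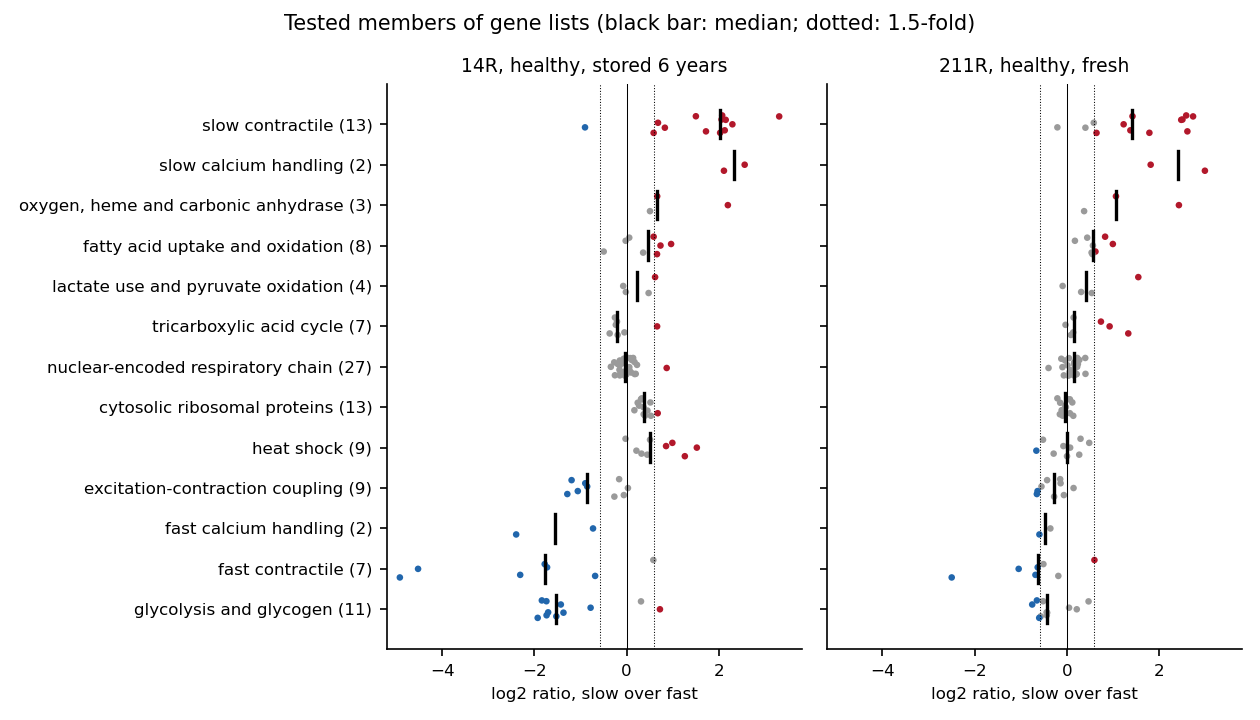
Log2 ratio, slow over fast (horizontal axis), of each tested member of 13 gene lists in 14R (left) and 211R (right); the number of tested members stands in brackets, red and blue points are past 1.5-fold, and black bars are medians. The slow contractile medians lie at 2.03 and 1.42 and the glycolysis medians at −1.53 and −0.44, whereas the respiratory chain medians lie at −0.04 and 0.16.

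Transcription factors and other regulators of fiber type gave few counts. Of 28 listed genes, 17 have a feature and 7 reached 50 UMIs in both sections, and 1 was higher in slow and 1 in fast spots in both. Among all genes tested, 3.29% were higher in slow and 1.52% in fast spots in both. TBX15, a T-box factor known from fast glycolytic fibers, had 15 UMIs in slow and 42 in fast spots of 14R and 17 and 35 in 211R, with log2 ratios of −1.75 (−2.74 to −0.90) and −1.16 (−2.11 to −0.31). MYF6, a myogenic factor of mature fibers, had 41 and 16 UMIs in 14R and 37 and 16 in 211R, or 1.03 (0.20 to 1.99) and 1.05 (0.19 to 2.02). Both TBX15 and MYF6 lay just over the minimum of 50 UMIs, mostly through the group where they were higher. The minimum itself therefore favored these 2 calls, which are given as values only. With the same MYH7 limits in both sections (at least 50% for slow and at most 10% for fast spots), the ratio of MYF6 in 14R was 0.0080 and its call was lost. FHL1 passed in 14R alone (0.99 and 0.23). MEF2C (−0.39 and −0.18), MEF2D (0.38 and 0.08), TEAD1 (0.19 and 0.37) and the thyroid hormone receptor THRA (0.06 and −0.03) were within 1.5-fold in both. PROX1, a homeobox factor of slow fibers, was under the minimum at 22 and 3 UMIs in 14R and 15 and 1 in 211R. PPARGC1A, a coactivator of mitochondrial genes, had 13 and 10 UMIs and 11 and 4, too few to compare.

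Ranked by the smaller of their 2 log2 ratios, the 10 highest genes in slow spots with a symbol and at least 200 UMIs per section were CA3, C1orf43, MYL2, ATP2A2, TNNC1, MYOZ2, ANKRD2, STRIT1, MYL3 and S100A1. Of these, C1orf43, STRIT1 and S100A1 stood in none of the lists. C1orf43 had 16.6 against 3.73 in 14R and 17.6 against 2.22 in 211R (2.15 and 2.99). In the RefSeq annotation of another rabbit assembly, mOryCun1.1, the same gene lies 2 protein-coding genes from TPM3, the tropomyosin of slow fibers. The count table used here has no feature named TPM3, and whether reads of it were counted under C1orf43 was not tested. S100A1, a calcium-binding protein that acts on SERCA and the release channel, had 2.33 and 1.52.

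The 10 highest genes in fast spots by the same ranking included ACTN3, MYL1, TPM1, JPH1 and PHKA1, given above, as well as ANKRD1, DHRS7C and LMAN2. ANKRD1, a relative of ANKRD2, stood at 4.14 in slow and 6.87 in fast spots of 14R and at 14.4 and 27.9 in 211R, or −0.73 and −0.96, the opposite direction to ANKRD2. Its call was lost in 14R without the spots richest in other-cell genes (−0.40) and with the same MYH7 limits in both sections (−0.48). DHRS7C, an enzyme of the sarcoplasmic reticulum, had −1.30 and −0.81, and LMAN2, a cargo receptor of the secretory pathway, had −1.07 and −0.70.

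Of the shared genes, 9 slow and 4 fast ones have an identifier but no symbol in the count table. ENSOCUG00000027416 had 169 UMIs in slow and 4720 in fast spots of 14R and 2862 and 5824 in 211R (−5.10 and −1.16). ENSOCUG00000025023 had 1429 and 2715 UMIs and 1030 and 1418 (−1.22 and −0.60). ENSOCUG00000017368 had 20553 UMIs in slow and 3983 in fast spots of 14R and 2702 and 913 in 211R (2.07 and 1.43). ENSOCUG00000015634 had 134 and 27 UMIs and 140 and 10 (1.99 and 3.60). These 4 features went past 1.5-fold the same way in all 4 sections and were picked after their values were seen.

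RNA of other cells was not spread evenly over the groups, and this differed between the sections. The 8 connective tissue genes with a feature summed to 79.2 per 10000 UMIs in slow and 30.3 in fast spots of 14R, and to 14.8 and 13.0 in 211R. All 6 tested members were higher in slow spots in 14R, 1 in 211R (COL1A1) and 1 in fast spots in 211R (LUM). Among all genes tested these shares were 22%, 6.05% and 5.75%, and 3.29% were higher in slow spots in both. Collagen COL1A1, at 1.58 and 0.88, was the member called in both. It rested on 43 and 21 UMIs in 211R and stood at 0.18 and 0.43 without the 20% of spots richest in the connective tissue, macrophage and developmental lists, an alternative that uses COL1A1 itself to leave out spots. The macrophage list, 15 genes with a feature, summed to 6.57 and 4.003 in 14R and to 0.953 and 0.901 in 211R. All of its members but CTSK were under the minimum, and CTSK had 1.29 and −0.12. The defining marker CD68 had 117 and 97 UMIs in 14R and 7 and 8 in 211R, and CD163 had 6 and 0 and 2 and 2. The CD68 counts of 14R come from groups of 3562740 slow and 2900243 fast UMIs. Relative to these totals CD68 was not higher in slow spots, unlike the sum of its list. SPARC, of the connective tissue list, had 0 UMIs in every group.

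Of the list of embryonic and regenerating fibers, 1 gene of 8 with a feature was tested, ACTC1, and it was higher in slow spots of both sections. The 8 genes summed to 16.0 in slow and 2.02 in fast spots of 14R and to 0.807 and 0.403 in 211R. Most of this in 14R was ACTC1, the cardiac actin that is also made in developing skeletal muscle, with 14.2 against 1.27 in 14R and 0.748 against 0.302 in 211R (3.49 and 1.30). Without the spots richest in other-cell and developmental genes its ratios were 2.64 and 0.36, so ACTC1 was then called in 14R alone, but this alternative uses ACTC1 itself to leave out spots. The other members were under the minimum in 211R. MYH8, the perinatal myosin heavy chain, had 351 and 180 UMIs in 14R and 2 and 10 in 211R, and MYL4, the embryonic light chain, had 91 and 16 and 1 and 0. NCAM1 had 44 UMIs in slow and 2 in fast spots of 14R and CHRNA1 had 43 and 1, while in 211R they had 0 and 4, and 3 and 1.

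Endothelial genes, led by VWF, summed to 3.16 and 2.09 in 14R and to 1.38 and 1.39 in 211R. The vessel wall list summed to 3.25 and 2.62 in 14R and to 1.496 and 3.42 in 211R, so it was lower in the slow spots of 211R. LMOD1, which nucleates actin in smooth muscle and was placed in this list, was the member higher in fast spots in both (−1.199 and −0.99). Adipose, blood and nerve markers lay at or under 0.154 per 10000 UMIs in each group, the genes of the myotendinous junction at or under 0.222, and 0 of their members were tested. Of 9 tested heat shock genes, 4 were higher in slow spots of 14R, 0 in slow and 1 in fast spots of 211R, and 0 in both. Of all genes tested, 22% were higher in slow spots of 14R, and 6.05% in slow and 5.75% in fast spots of 211R. CRYAB, a chaperone of desmin and actin, stood at 95.2 against 33.1 in 14R but at 77.3 against 73.5 in 211R (1.52 and 0.07).

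**Figure D5:**
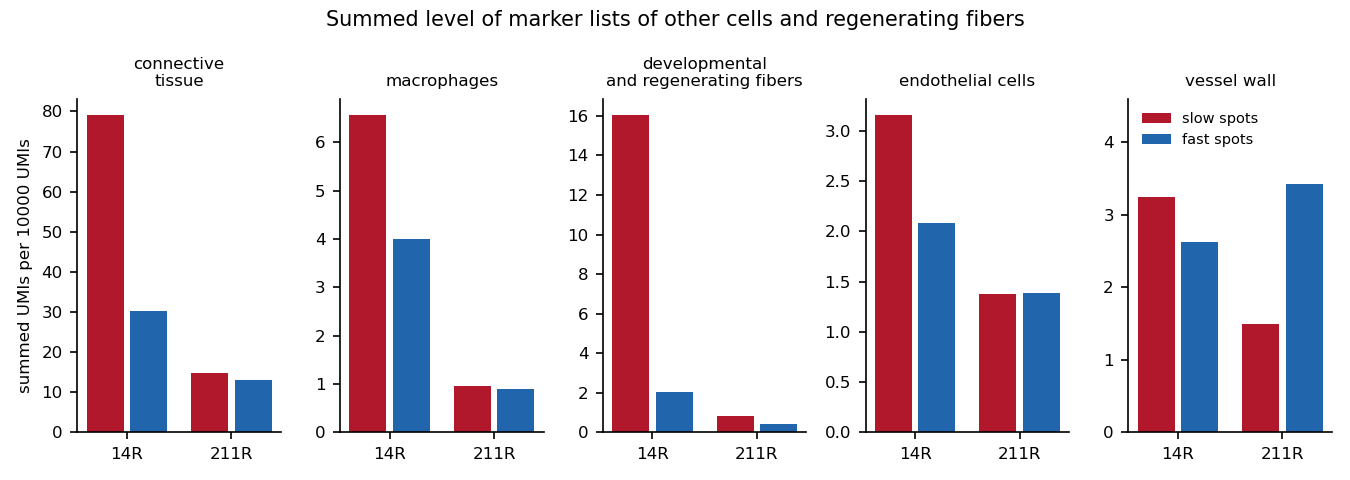
Summed UMIs of 5 marker lists per 10000 UMIs (vertical axes from 0, a scale of its own for each list) in slow (red) and fast (blue) spots of 14R and 211R; each bar is 1 group of spots and has no replicate. The connective tissue list stands at 79.2 and 30.3 in 14R and at 14.8 and 13.0 in 211R, and the list of developmental and regenerating fibers at 16.0 and 2.02 and at 0.807 and 0.403.

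As sums, the connective tissue, macrophage and developmental lists were higher in the slow spots of 14R, though not every member was. Their part in the 448 genes higher there was not tested. Leaving out the 20% of spots with the largest share of connective tissue, macrophage and developmental UMIs before ranking brought the connective tissue list to 29.4 in slow and 23.4 in fast spots of 14R and the median gene to 0.05. The fall of the connective tissue list is built into this choice, since its own UMIs were used to leave out spots. Then 47 genes were higher in slow and 33 in fast spots in both sections, 36 and 23 of them shared with the counts above. The median of the slow contractile list was then 1.67 in 14R and 1.53 in 211R, in place of 2.03 and 1.42. That of the fast contractile list was −1.13 and −0.61, in place of −1.78 and −0.63, so the fast ratio of 14R shrank by more than 1.5-fold. The ranking was redrawn on the remaining spots, so the groups were not the same spots as before. In slow spots of 14R the summed fast contractile list rose from 91.5 to 151 and the slow contractile list fell from 730 to 568. In fast spots they stood at 359 and 232 before and at 365 and 231 after. What part other cells had in this was not tested. ATP2A2 stood at 1.85 in 14R and 2.99 in 211R.

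The size of the ratios differed between the sections. For 29 of the 31 fast genes the ratio was larger in 14R, and for 42 of the 67 slow genes. How many of all genes tested had the larger ratio in 14R was not counted. Of all genes tested, 448 were past 1.5-fold to the slow and 163 to the fast side in 14R, and 123 and 117 in 211R. Of the 10 highest slow genes ranked above, ANKRD2 and S100A1 had the larger ratio in 14R and the others in 211R. Since the 2 sections were cut at different MYH7 shares, spots were also grouped by the same limits in both, at least 50% MYH7 for slow and at most 10% for fast, chosen after seeing the data. This left 1155 slow and 104 fast spots in 14R and 101 and 930 in 211R. The groups were still not matched in MYH7 share. Of the slow spots, 424 in 14R and 1 in 211R lay at 95 to 100% MYH7. Of the fast spots, 13 in 14R and 508 in 211R lay under 5%. The medians of the slow contractile list were then 1.91 and 1.83, and those of the fast contractile list −1.34 and −1.02. ATP2A1 stood at −1.80 and −0.98, ACTN3 at −3.11 and −1.53 and MYL1 at −1.58 and −1.02. With these limits 87 genes were higher in slow and 90 in fast spots in both sections, of which 39 and 22 were among the 67 and 31.

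The same rule was applied to the 2 sections after tenotomy, which the choice of genes had not used. In 6L the slow spots began at 19.0% MYH7 and the fast spots ended at 5.47%. In 14L the slow spots began at 84.1% and the fast spots ended at 53.3%. The fast spots of 14L thus reached well above the 21.1% at which the slow spots of 211R began. Ratios of different sections therefore compare different MYH7 shares, and the part of this in their size was not tested. Of the 67 slow genes, 56 had 50 UMIs in 6L, and 35 of these were 1.5-fold higher in slow spots there and 4 in fast spots, beside 5.47% and 9.37% of all genes. In 14L, 25 of 63 were higher in slow and 0 in fast spots, beside 4.40% and 5.28% of all genes. The medians of the slow genes were 0.86 in 6L and 0.43 in 14L. Of the fast genes, 17 of 28 in 6L and 15 of 25 in 14L were 1.5-fold higher in fast spots and 0 in slow spots, with medians of −0.85 and −0.69.

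In total 22 slow and 11 fast genes went past 1.5-fold the same way in all 4 sections. The slow ones include MYL2, MYL3, TNNC1, MYOZ2, MYH7B, ATP2A2, CASQ2, STRIT1, CA3, ANKRD2, CSRP3, LMOD2, PDLIM1, MB and FABP3. The fast ones include ACTN3, MYL1, TPM1, ATP2A1, ENO3 and DHRS7C. ATP2A2 had log2 ratios of 2.61 in 6L and 1.24 in 14L, MYL2 2.58 and 1.07, ACTN3 −1.15 and −3.43 and MYL1 −1.19 and −1.69. ACTC1 was reversed in 6L, at −1.66, and stood at 1.57 in 14L, and LPL stood at 0.64 and −0.0026.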

How the data were processed

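The 4 sections of rabbit supraspinatus were assayed on Visium slides. The deposited values are UMI counts for spots under tissue, without normalization, that the authors obtained with Space Ranger 1.2.0 from reads aligned to OryCun2.0 with an Ensembl annotation. The table has 21139 features, of which 37 are mitochondrial. Sections 14R and 211R held 12536450 and 7017798 UMIs in 2440 and 1950 spots. In 14R, 60 spots had under 500 UMIs and 28 more under 10 MYH1+MYH7 UMIs, and in 211R 166 and 19. The kept spots were 2352 and 1765. The sections share 1603 spot barcodes, since every capture area carries the same printed barcodes, so a shared barcode is no shared tissue. No doublet caller was run on spots.

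UMIs were summed per gene and group. A gene was called at 1.5-fold or more the same way in both sections, among genes with at least 50 UMIs in each. With 1 section per condition there was no test. Named genes were the tested members of the contractile, calcium, regulator and oxygen lists, the 10 highest per direction with 200 UMIs, and members of other lists called in both, at most 6 per list. Other genes were named after their values were seen. Some genes that this rule names are not reported here. The spots, members and gene lists were chosen with earlier results of these data known. Sums carry exact Poisson and ratios exact conditional 95% intervals. Only the ratio intervals were tested on simulated data, which were Poisson sums without differences between spots. Alternatives covered fold, minimum counts, totals, centring, weighting, thinning to 1000 UMIs, limits on spots and the spot groups. Gene neighbors came from RefSeq mOryCun1.1. Tools were scipy 1.17.1, numpy 2.4.6, matplotlib 3.10.9 and pandas 2.3.3 under Python 3.11.15.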

Additional observations from a re-analysis of the deposited data

Results flagged for a closer look

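Of 2034 genes tested, 21 were 1.5-fold higher in slow spots of 14R and 1.5-fold higher in fast spots of 211R, and 3 went the other way. Among all genes tested, 22% were higher in slow spots of 14R and 5.75% in fast spots of 211R. For the other way the shares were 8.01% and 6.05%. Whether 21 and 3 differ from what unrelated calls would give was not tested. These genes were looked at again because the 2 healthy sections disagree on them. The difference was not tested, since there is 1 section of each. Among those with a symbol and at least 200 UMIs in each section, LUM, which encodes the collagen-binding proteoglycan lumican, had log2 ratios of 1.73 in 14R and −0.73 in 211R. ACTA2, the actin of smooth muscle and of vessel walls, had 0.62 in 14R and −1.50 in 211R.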

How the results depend on the processing

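Of the alternatives, 2-fold in place of 1.5-fold gave 23 slow and 4 fast genes, a lower limit on the fold 203 and 117, at least 20 UMIs 152 and 47, at least 200 UMIs 30 and 15, at least 1 UMI 880 and 407, and thinning to 1000 UMIs 36 and 19 of only 778 genes tested. The top and bottom 10% of spots gave 58 and 55, the same MYH7 limits in both sections 87 and 90 (chosen after seeing the data), 14R alone 448 and 163, and 211R alone 123 and 117. The other settings stayed within 1.5 times of 67 and 31. Under the 11 settings that change spots or totals, 18 of 67 slow and 5 of 31 fast genes were called each time, and 30 and 9 wherever they still had 50 UMIs. Of single values, COL1A1 in 211R went to −0.017 after thinning. The median of the endothelial list in 14R went to −0.062 without the spots richest in other-cell genes and to −0.18 with common limits, and that of the developmental list in 211R to −0.91 with common limits, where ACTC1 itself stood at 2.21 and the tested members of the list were not the same. The causes were not tested. No paired analysis was possible because no test was run with 1 section per condition and the 2 healthy sections share no number in their labels. Depth limits rare genes: 7 of 17 fiber type regulators with a feature reached 50 UMIs in both sections.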

Other observations

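Outside the lists, 2 enzymes of ketone body use were both higher in slow spots of both sections. OXCT1 had 251 UMIs in slow and 66 in fast spots of 14R and 59 and 31 in 211R (log2 ratios 1.62 and 0.78), and BDH1 had 82 and 30 and 56 and 18 (1.14 and 1.47). COQ8A, needed to make coenzyme Q, had 0.78 and 0.69, and its call was lost under 3 of 11 alternatives. CFL2, the muscle cofilin that severs actin filaments, had 1.45 and 0.94, and TWF2, a twinfilin that binds actin monomers, had 1.22 and 0.90, and both were called in all 4 sections. RRAD, a small GTPase that restrains calcium channels, had 383 UMIs in slow and 37 in fast spots of 14R and 71 and 19 in 211R (3.06 and 1.74). In fast spots, CHRNA9, a subunit of acetylcholine receptors, had 11 and 55 UMIs in 14R and 40 and 70 in 211R (−2.57 and −0.94). All genes of this paragraph were named after their values were seen.

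GPNMB, a glycoprotein of macrophages and other cells, had 20 UMIs in slow and 420 in fast spots of 14R and 2 and 4 in 211R. In 211R it was under the minimum, and how many spots held these UMIs was not counted. The summed macrophage list stood the other way in 14R, at 6.57 in slow and 4.003 in fast spots.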
